A study of Komagataella pastoris with 4 samples.

Results

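Core histone genes were followed in 4 strains of the methylotrophic yeast Pichia pastoris (labelled Komagataella pastoris), through 2 pairs of neighbouring rows of the deposited count table. The members were chosen by row identifier and are gene1886 with gene1887, and gene1623 with gene1624, 4 of the 5427 rows. All 4 passed the filter on low counts, a mean of at least 20 over the libraries, as did 5420 rows in all. Their ratios to the wild type were known when they were chosen, so these ratios are given as a description.

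The strains were an Mxr1 deletion, a Gal83 deletion, a Gcn5 deletion and their wild type, GS115. All 4 were histidine auxotrophs, and the 3 deletion strains were also resistant to Zeocin. All were grown on methanol in minimal medium, without further treatment, and harvested after 14 h. Each strain gave 1 library of total RNA depleted of ribosomal RNA, with 34646983, 30582006 and 30741258 counts for the Mxr1, Gal83 and Gcn5 deletions and 48539082 in the wild type. The number of clones behind a strain is not given in the sources used here. With 1 library per strain no difference has a replicate check, so no test was made and no p-value is given.

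Mxr1 activates methanol genes through its zinc fingers, Gal83 belongs to the Snf1 kinase as a beta-subunit, and Gcn5 is the acetyltransferase that modifies the tails of histones H3 and H2B. The deletion libraries are called Dmxr1, Dgal83 and Dgcn5, as in their labels. The row described as the acetyltransferase acting on H2B and H3 (gene3103) had 3 counts in the Dgcn5 library and 2570 in the wild type. A row described as a Snf1 beta-subunit (gene1360) had 8 counts in the Dgal83 library and 5215 in the wild type. The description of 0 rows named Mxr1, so the Dmxr1 label could not be checked, and every direction drawn from that library rests on its label.

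Core histones are the proteins around which DNA is wrapped in the nucleosome: H2A pairs with H2B, and H3 with H4. In the baker's yeast Saccharomyces cerevisiae, genes for the partners lie side by side, are transcribed away from each other from a shared promoter, and are switched on as DNA is replicated in S phase. That yeast carries more than 1 such pair for the same histones, and the copies are known to be regulated differently. Histone chaperones of the HIR complex repress most of the pairs there outside S phase.

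All 4 member rows carry the description "Core histone H2A/H2B/H3/H4", a name for the protein family that does not tell which histone a row encodes. The table gives neither coordinates nor strand, so whether the rows of a pair are transcribed away from each other could not be read from it. In the table's order, 261 rows lie between the 2 pairs, and their locus tags belong to different series. Copies of a histone gene are often near-identical, and how reads fitting several copies were counted is not given in the sources used here. Values of single rows are therefore uncertain where copies share sequence. Strandedness was not stated either, so reads from overlapping neighbours cannot be told apart.

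The pairs went in opposite directions in the Dmxr1 and Dgal83 libraries. Both rows of the pair gene1886 and gene1887 were lower than in the wild type in all 3 deletion libraries, by 11.3-fold and 11.2-fold in the Dmxr1 library, 3.71-fold and 2.80-fold in the Dgal83 library and 2.48-fold and 2.61-fold in the Dgcn5 library. Both rows of the pair gene1623 and gene1624 were higher in the Dmxr1 library, by 2.91-fold and 3.46-fold, and in the Dgal83 library, by 2.56-fold and 3.80-fold. In the Dgcn5 library gene1623 was 1.96 times the wild-type level, and gene1624 was 1.05 times it. The summed counts of this pair were 1.74 times the wild-type level there, most of them from gene1623. In RNA from whole cultures, fewer cells expressing a gene and less RNA per cell cannot be told apart.

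Levels are counts per 1000000 (CPM) after TMM scaling (trimmed mean of M-values), with the exact 95% Poisson interval in brackets. Ratios are log2 ratios of scaled counts with 0.5 added to each count, with the exact 95% counting interval. Both intervals cover counting error only, not differences between cultures. The labels mention no molecular identifiers, so duplicate reads may be counted. Levels are compared between libraries and not between rows, because the table gives no row lengths.

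Row gene1886 had 402 counts in the Dmxr1 library, 1508 in the Dgal83 library, 1647 in the Dgcn5 library and 8107 in the wild type. Its scaled level was 13.5 [12.2 to 14.8], 40.9 [38.8 to 43.0] and 61.3 [58.4 to 64.4] CPM in the Dmxr1, Dgal83 and Dgcn5 libraries, against 152 [149 to 155] in the wild type. The wild type was highest and the Dmxr1 library lowest, with no overlap between neighbours in the order. Its log2 ratio was -3.49 [-3.64 to -3.35] in the Dmxr1 library, -1.89 [-1.97 to -1.81] in the Dgal83 library and -1.31 [-1.39 to -1.23] in the Dgcn5 library.

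Its neighbour gene1887 had 292, 1449 and 1131 counts in the Dmxr1, Dgal83 and Dgcn5 libraries and 5869 in the wild type. The scaled level was 9.77 [8.69 to 11.0], 39.3 [37.3 to 41.3] and 42.1 [39.7 to 44.6] CPM in the same 3 deletion libraries, against 110 [107 to 113] in the wild type. The order was that of gene1886, except that the intervals of the Dgcn5 and Dgal83 libraries overlapped. The log2 ratios were -3.49 [-3.67 to -3.32], -1.48 [-1.57 to -1.40] and -1.38 [-1.48 to -1.29] for the Dmxr1, Dgal83 and Dgcn5 libraries.

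In the other pair, gene1623 had 31318, 34115 and 19026 counts in the Dmxr1, Dgal83 and Dgcn5 libraries and 19270 in the wild type. Scaling brought these to 1048 [1037 to 1060], 925 [915 to 934] and 708 [698 to 718] CPM, against 361 [356 to 366] in the wild type. All 3 deletion libraries lay above the wild type and no intervals overlapped. The log2 ratios were 1.54 [1.51 to 1.56], 1.36 [1.33 to 1.38] and 0.97 [0.944 to 1.002]. The last was just short of 2-fold, and its interval included 2-fold.

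Row gene1624 had 11805, 15993 and 3227 counts in the Dmxr1, Dgal83 and Dgcn5 libraries and 6098 in the wild type. Its scaled level was 395 [388 to 402] in the Dmxr1 and 433 [427 to 440] in the Dgal83 library, but 120 [116 to 124] in the Dgcn5 library, against 114 [111 to 117] CPM in the wild type. The intervals of the Dgcn5 library and the wild type overlapped. The log2 ratios were 1.79 [1.75 to 1.84], 1.92 [1.88 to 1.97] and 0.07 [0.01 to 0.14], and the last changed sign, to -0.26, when libraries were scaled by total counts.

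**Figure D1:**
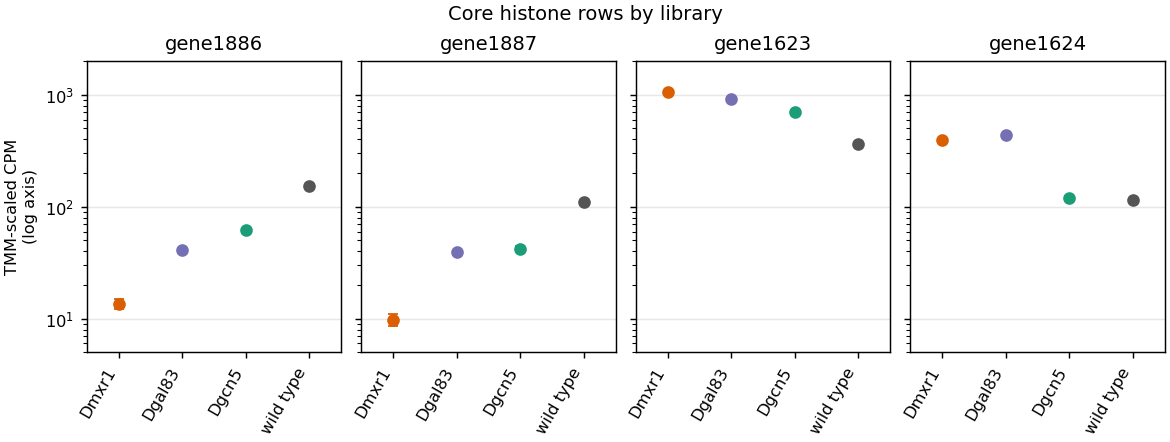
TMM-scaled CPM (log axis) of the 4 member rows in the Dmxr1, Dgal83, Dgcn5 and wild-type libraries, 1 point per library, with exact 95% Poisson intervals, most of which are smaller than the points. Rows gene1886 and gene1887 are highest in the wild type (152 and 110) and lowest in the Dmxr1 library (13.5 and 9.77), whereas gene1623 is lowest in the wild type (361).

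Calls of higher or lower required a difference of at least 2-fold and a counting interval that excluded equality. In the Dmxr1 library 2 members were called lower and 2 higher. Over all 5420 rows the same rule called 10.3% lower and 7.97% higher. In the Dgal83 library it was again 2 lower and 2 higher, with 10.7% of all rows lower and 11.0% higher. In the Dgcn5 library 2 members were lower and 0 higher, with 5.04% and 4.06% of all rows. Since these ratios were known when the members were chosen, nothing is read from these shares.

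The split of calls over all rows depended on scaling: higher rows made up 43.6%, 50.6% and 44.6% of the calls in the Dmxr1, Dgal83 and Dgcn5 libraries, and 18.4%, 61.1% and 15.9% with total counts. Total counts moved the median of all rows to log2 -0.36, 0.14 and -0.34, against -0.01, 0.01 and -0.01 with TMM. Upper-quartile factors moved it to -0.12 in the Dmxr1 library and changed the split there to 33.6%.

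Among the 5420 rows ordered by their log2 ratio in the Dmxr1 library, gene1886 and gene1887 held ranks 24 and 25 from the lowest. Their ranks from the lowest were 138 and 278 in the Dgal83 library and 133 and 106 in the Dgcn5 library. From the highest, gene1623 and gene1624 held ranks 155 and 111 in the Dmxr1 library, 297 and 90 in the Dgal83 library and 237 and 2351 in the Dgcn5 library. The ranks describe ratios that were known when the members were chosen, and nothing is read from them. The 4 rows had a median log2 ratio of -0.97, -0.06 and -0.62 in the Dmxr1, Dgal83 and Dgcn5 libraries. These medians lie between pairs that went apart and describe neither pair.

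The ratio of neighbouring rows within a library needs no scaling. In the lower pair, gene1886 held 57.9% [54.2 to 61.6] of the pair's counts in the Dmxr1 library, 51.0% [49.2 to 52.8] in the Dgal83 library, 59.3% [57.4 to 61.1] in the Dgcn5 library and 58.0% [57.2 to 58.8] in the wild type, with exact binomial intervals. The pair thus kept its proportions within counting error in the Dmxr1 and Dgcn5 libraries, while its level was 11.3-fold and 2.53-fold lower. The log2 ratio of gene1886 minus that of gene1887 was -0.01 [-0.23 to 0.22] in the Dmxr1 library and 0.08 [-0.04 to 0.20] in the Dgcn5 library. It was -0.41 [-0.52 to -0.29] in the Dgal83 library, where gene1886 was the lower of the neighbours.

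In the other pair, gene1623 held 72.6% [72.2 to 73.0] of the pair's counts in the Dmxr1 library, 68.1% [67.7 to 68.5] in the Dgal83 library, 85.5% [85.0 to 86.0] in the Dgcn5 library and 76.0% [75.4 to 76.5] in the wild type. None of these intervals overlapped. The difference of log2 ratios, gene1623 minus gene1624, was -0.25 [-0.30 to -0.20] and -0.57 [-0.62 to -0.52] in the Dmxr1 and Dgal83 libraries and 0.90 [0.83 to 0.97] in the Dgcn5 library. The Dgcn5 library was thus the only one of the 3 in which gene1623 gained on gene1624.

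Set against each other, the pairs parted most in the Dmxr1 library. The pair gene1886 and gene1887 held 1.58% [1.47 to 1.71] of the counts of both pairs there, 5.57% [5.38 to 5.77] in the Dgal83 library and 11.1% [10.7 to 11.5] in the Dgcn5 library, against 35.5% [35.0 to 36.0] in the wild type. The other pair had 62.1, 16.9 and 8.01 times as many counts in the Dmxr1, Dgal83 and Dgcn5 libraries, against 1.82 times in the wild type. The difference between the pairs' log2 ratios was -5.10 [-5.21 to -4.98], -3.22 [-3.28 to -3.16] and -2.14 [-2.21 to -2.08] in the same 3 comparisons. These comparisons share the wild-type library, so a deviation of that library would enter all 3.

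Neighbouring rows were compared across the table as a background. There were 5102 pairs of consecutive protein-coding rows of 1 locus tag series. The median absolute difference between neighbours in log2 ratio was 0.59 in the Dmxr1, 0.62 in the Dgal83 and 0.42 in the Dgcn5 library. For gene1886 and gene1887 the difference was 0.01, 0.41 and 0.08, and 0.627%, 34.8% and 10.3% of neighbouring pairs lay closer together. For gene1623 and gene1624 it was 0.25, 0.57 and 0.90, and 23.9%, 46.7% and 80.9% of pairs lay closer together. The members were chosen with these ratios known, so nothing is read from these shares.

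Both neighbours were called lower in 2.02% of the 5102 pairs in the Dmxr1 library, 1.84% in the Dgal83 library and 0.980% in the Dgcn5 library, gene1886 and gene1887 included. Both were called higher in 1.90%, 2.61% and 0.647%, with gene1623 and gene1624 among them in the Dmxr1 and Dgal83 libraries. In the Dmxr1 library 0 other neighbouring pairs had both rows as low as gene1887, the less extreme row of its pair. In the Dgal83 and Dgcn5 libraries 21 other pairs each had both rows at least as low as the less extreme member. At least as high as the less extreme of gene1623 and gene1624 were both rows of 24 other pairs in the Dmxr1 and of 56 in the Dgal83 library. In the Dgcn5 library, where gene1624 was at 0.07, this held for 1130 other pairs. The counts of other pairs place ratios that were known when the members were chosen, and nothing is read from them.

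**Figure D2:**
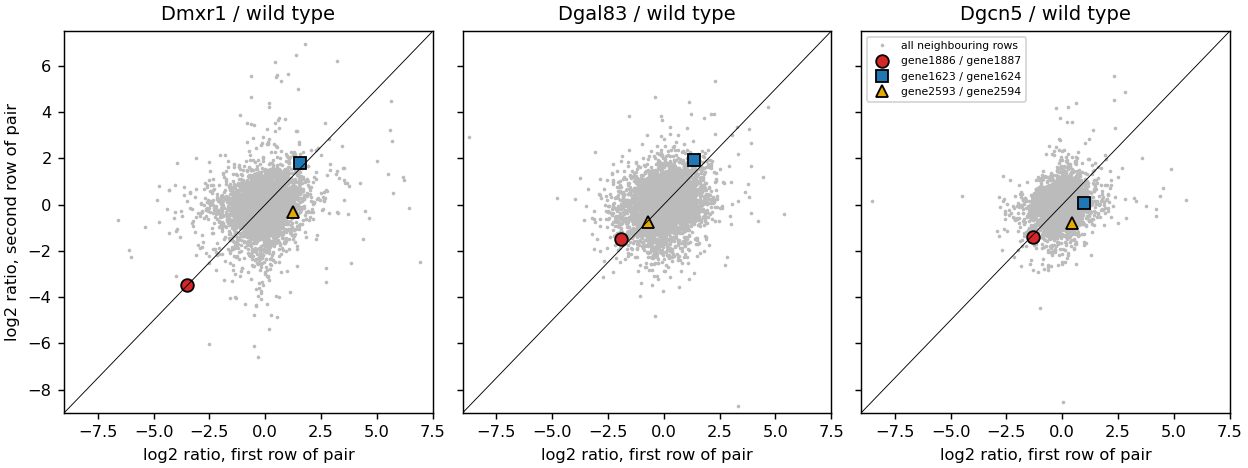
The log2 ratio to the wild type of the first row (horizontal) and the second row (vertical) of each pair of neighbouring protein-coding rows, 5102 grey points per comparison, for the Dmxr1, Dgal83 and Dgcn5 libraries. The pair gene1886 and gene1887 (red circle) lies on or near the diagonal at the low end in all 3 panels, and gene1623 and gene1624 (blue square) leave the diagonal in the Dgcn5 panel, at 0.97 and 0.07.

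The difference stopped at the edges of the lower pair. The row before gene1886, described as loss of respiratory capacity protein 2 (gene1885), was at log2 -0.10, 0.84 and -0.10 in the Dmxr1, Dgal83 and Dgcn5 libraries. The row after gene1887, a mannosyltransferase of the KRE2 family that adds sugars to proteins (gene1888), was at 0.16, 0.16 and 0.41. One row further out, a tyrosine phosphatase with a role in actin organisation (gene1884) was at 0.65, 0.36 and -0.36, and a histone deacetylase and transcriptional regulator (gene1889) was at -0.04, -0.31 and 0.11. Of the 10 rows within 5 places of this pair, 0 were called lower in any of the 3 deletion libraries, and 1 was called higher, in the Dmxr1 library.

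The edges of the other pair were less sharp. GPI mannosyltransferase 2 (gene1622), an enzyme of membrane anchor synthesis and the row before gene1623, was called higher in the Dmxr1 library, at log2 1.18 [1.06 to 1.29], and was at 0.91 and 0.20 in the Dgal83 and Dgcn5 libraries. The proteasome subunit before it (gene1621) was at 0.58, 0.93 and -0.38. On the other side, Tos1p (gene1625) was at -0.43, 0.12 and -0.47, and an arrestin domain-containing protein (gene1626) at -0.38, -0.61 and -1.03, the last called lower. Of the 10 rows within 5 places, 3 were higher and 0 lower in the Dmxr1 library, 1 higher and 1 lower in the Dgal83 library and 0 higher and 1 lower in the Dgcn5 library. Some of these rows rose more than the members. Rows gene1628 and gene1629 were at 2.47 and 2.50 in the Dmxr1 library, and gene1618 was at 4.23 in the Dgal83 library.

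**Figure D3:**
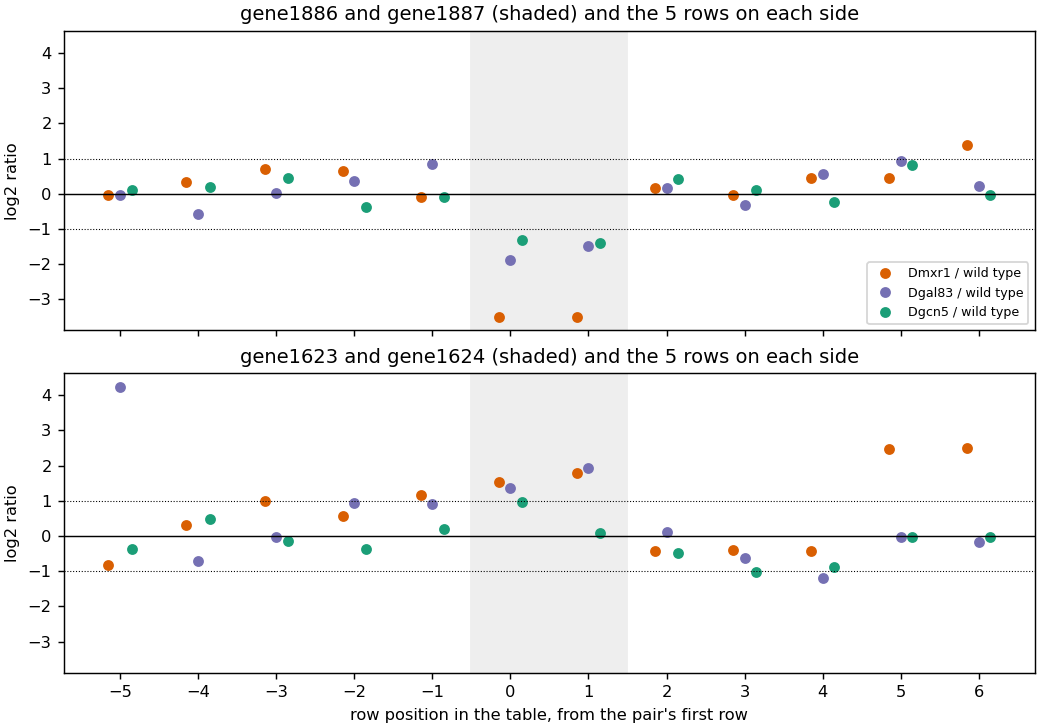
Log2 ratio to the wild type of the member pairs (shaded) and the 5 rows before and after each, by position in the table, for the Dmxr1, Dgal83 and Dgcn5 libraries, with dotted lines at 2-fold. Rows gene1886 and gene1887 are the only rows below the lower line in the upper panel, whereas gene1622, next to gene1623, is also above the upper line in the Dmxr1 library, at 1.18. Rows gene1628 and gene1629 in the Dmxr1 library and gene1618 in the Dgal83 library lie above both members in the lower panel.

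The table held 7 other rows described as histones. They are 4 further rows with the core histone description (gene2593, gene2594, gene5258 and gene2263), a row named histone H2A (gene2592), the centromeric histone H3-like protein cse-4 (gene4198), which marks the site of kinetochore assembly, and a row named histone-fold (gene3352). Of these 7, 1 was called higher and 0 lower in the Dmxr1 library, 1 higher and 0 lower in the Dgal83 library, and 0 in either direction in the Dgcn5 library. With 7.97%, 11.0% and 4.06% of all rows higher and 10.3%, 10.7% and 5.04% lower in these libraries, counts of 0 or 1 of 7 are near the background. Their median log2 ratio was 0.08, -0.20 and -0.12 in the same order.

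Rows gene2593 and gene2594 form another neighbouring pair of core histone rows. Row gene2593 had 17387, 5566 and 8930 counts in the Dmxr1, Dgal83 and Dgcn5 libraries and 13100 in the wild type. Row gene2594 had 6579, 6062 and 4292 counts in the same deletion libraries and 14839 in the wild type. Their log2 ratios were 1.25 and -0.34 in the Dmxr1 library, -0.70 and -0.76 in the Dgal83 library and 0.44 and -0.80 in the Dgcn5 library. These neighbours had similar ratios in the Dgal83 library and differed in the other deletion libraries, by 1.58 [1.53 to 1.64] and 1.24 [1.17 to 1.30] log2 units in the Dmxr1 and Dgcn5 libraries. The share of neighbouring pairs that lay closer together was 87.2% and 90.0% there.

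The row named histone H2A (gene2592), next to gene2593, had 249, 441 and 141 counts in the Dmxr1, Dgal83 and Dgcn5 libraries and 305 in the wild type, and was called higher in the Dgal83 library at log2 1.06 [0.85 to 1.28]. The core histone row gene5258 was at log2 0.76, 0.11 and 0.32, and gene2263 at -0.02, -0.20 and -0.02. The centromeric row gene4198 was at -0.25, -0.02 and -0.42, and the histone-fold row gene3352 at 0.08, -0.32 and -0.32.

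**Figure D4:**
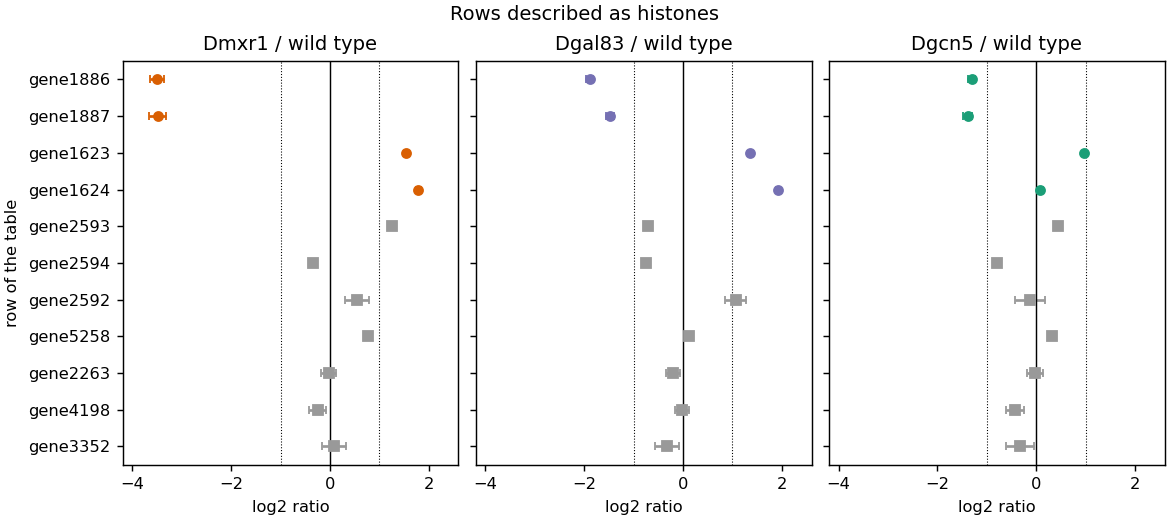
Log2 ratio to the wild type, with exact 95% counting intervals, of the 4 member rows (coloured circles) and the 7 other rows described as histones (grey squares), for the Dmxr1, Dgal83 and Dgcn5 libraries, with dotted lines at 2-fold. Rows gene1886 and gene1887 stand below the lower line in all 3 panels and 0 of the other histone rows do.

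Summed counts do not depend on how reads were divided among copies within the sum, provided that such reads were counted. If reads fitting several copies were left out, the sum lacks them. Over the 8 core histone rows, the sum was 74325, 70000 and 42706 counts in the Dmxr1, Dgal83 and Dgcn5 libraries, against 74594 in the wild type. After scaling this was 2488, 1897 and 1590 CPM, against 1397 in the wild type. The log2 ratio of the sum was 0.83 [0.82 to 0.85], 0.44 [0.43 to 0.46] and 0.19 [0.17 to 0.20], and the last changed sign with total counts, to -0.15. The summed level was therefore no lower than in the wild type in the Dmxr1 and Dgal83 libraries under the scalings tried, although gene1886 and gene1887 are part of it.

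The make-up of the sum differed more than its size. The pair gene1886 and gene1887 held 0.934% of the core histone counts in the Dmxr1 library, 4.22% in the Dgal83 library and 6.50% in the Dgcn5 library, against 18.7% in the wild type. The pair gene1623 and gene1624 held 58.0%, 71.6% and 52.1% in the same deletion libraries, against 34.0% in the wild type. The 4 core histone rows outside these pairs held 41.0%, 24.2% and 41.4%, against 47.3% in the wild type. These are shares of reads and not of transcripts, since row lengths are not in the table.

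**Figure D5:**
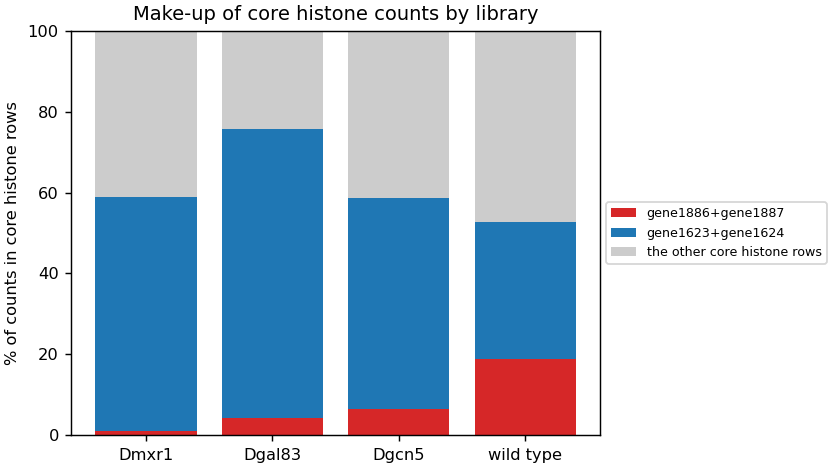
Share of the counts of the 8 core histone rows, in percent, held by gene1886 and gene1887 (red), by gene1623 and gene1624 (blue) and by the other 4 rows (grey), in the Dmxr1, Dgal83, Dgcn5 and wild-type libraries. The red part is 0.934%, 4.22% and 6.50% in the deletion libraries and 18.7% in the wild type.

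Histone chaperones and deposition factors carry histones to DNA. Of 11 rows matched by description, 1 was lower and 0 higher in the Dmxr1 library (median log2 -0.15), 4 lower and 0 higher in the Dgal83 library (median -0.35) and 0 in either direction in the Dgcn5 library (median 0.23). Over all rows the share called lower was 10.3%, 10.7% and 5.04%, and the share called higher was 7.97%, 11.0% and 4.06%. The median over all rows was -0.01, 0.01 and -0.01. The row lower in the Dmxr1 library was a NAP family histone chaperone (gene3643), at log2 -1.02, with 0.10 and 0.70 in the Dgal83 and Dgcn5 libraries. The highest of the list in the Dmxr1 library was the FACT subunit POB3 (gene323), at 0.73, and the lowest in the Dgcn5 library was ASF1 (gene5350), at -0.34.

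The 4 rows of this list lower in the Dgal83 library were a subunit of the FACT complex, which loosens nucleosomes for polymerases (gene1392, log2 -2.03), a subunit of the HIR complex (gene1940, -1.33), the H3 and H4 chaperone ASF1 (gene5350, -1.21) and a karyopherin that imports H2A and H2B (gene1467, -1.21). Other rows described as FACT subunits, POB3 (gene323) and SSRP1 (gene4290), were not called there, at 0.09 and -0.0008. The H2A.Z-specific chaperone CHZ1 (gene1390) was not matched by the list's patterns and was added after its values were seen. It was also called lower in the Dgal83 library, at -1.47, and was at -0.80 and 0.46 in the Dmxr1 and Dgcn5 libraries. The HIR subunit gene1940 was at -0.65 and -0.12 in the Dmxr1 and Dgcn5 libraries. The row described as histone transcription regulator 3 (gene2167), the name of another HIR protein, was at 0.04, 0.16 and 0.21 in the Dmxr1, Dgal83 and Dgcn5 libraries. A row described as a sequence-specific activator of histone genes (gene1814), chosen after its values were seen, had 583, 652 and 530 counts in these deletion libraries and 676 in the wild type, or log2 0.62, 0.48 and 0.64.

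Some genes of DNA replication are expressed near the same phase of the cell cycle as histone genes in yeast. The list of replication rows was matched by description and not by phase of expression. Its calls went both ways in the Dmxr1 library and were mainly lower in the Dgal83 library. Of 38 rows matched by description, 4 were lower and 2 higher in the Dmxr1 library (median log2 -0.21), 13 lower and 2 higher in the Dgal83 library (median -0.41) and 2 lower and 0 higher in the Dgcn5 library (median -0.13). The same rule called 10.3% of all rows lower and 7.97% higher in the Dmxr1 library, 10.7% and 11.0% in the Dgal83 library, and 5.04% and 4.06% in the Dgcn5 library. The counts of 4 and 2 lower rows are near these shares, and that of 13 is above. The count of 2 higher rows in the Dgal83 library is below the share of 11.0%. The sliding clamp PCNA (gene4097) was higher in the Dmxr1 and Dgal83 libraries, at 1.19 and 1.14. The higher row beside it was thymidylate synthase (gene3254, 1.02) in the Dmxr1 library and a ribonucleotide reductase row (gene2835, 1.29) in the Dgal83 library. Another row of the same reductase subunit (gene616) was called lower in the Dgal83 library, at -1.83. It had 12856 counts in the wild type, against 1075 for gene2835. The small chain of the reductase (gene5213) was also called lower in the Dgal83 library, at -1.66.

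The lowest replication rows were origin recognition complex subunit 6 (gene3332) in the Dmxr1 library, at log2 -2.59, and DNA topoisomerase 2 (gene4002) in the Dgal83 library, at -2.12. Also lower in the Dmxr1 library were origin recognition complex subunit 4 (gene2432, -1.15), a DNA polymerase epsilon subunit (gene2377, -1.14) and a DNA primase subunit (gene2498, -1.01). The 2 lower rows in the Dgcn5 library were a DNA helicase of lagging strand synthesis (gene538, -1.43) and the GINS protein PSF2 (gene1046, -1.35). The small ribonucleotide reductase row gene5213 was the highest of the list there, at 0.79. The list includes rows with other roles, such as the topoisomerase-associated protein PAT1.

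Of 43 histone modifier rows, 3 were lower and 3 higher in the Dmxr1 library, 2 lower and 2 higher in the Dgal83 library and 3 lower and 0 higher in the Dgcn5 library, Gcn5 itself included. These counts are near or below the shares of all rows, 10.3% lower and 7.97% higher in the Dmxr1, 10.7% and 11.0% in the Dgal83, and 5.04% and 4.06% in the Dgcn5 library. The median log2 ratios of the list were 0.05, 0.02 and -0.19. The type B histone acetyltransferase, which acetylates newly made histones (gene4106), was at log2 0.54, -1.33 and 0.75. A row described as histone acetyltransferase MYST3 (gene3119) was highest of the list in the Dmxr1 and Dgal83 libraries, at 1.42 and 1.27, and was at -0.14 in the Dgcn5 library. A likely SIR2 family deacetylase (gene1156) was lowest in the Dmxr1 library, at -1.73, and was also called lower in the Dgcn5 library, at -1.04.

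The other modifiers called higher were a member of the SET3 deacetylase complex (gene31, log2 1.14) and an Rpd3 complex component (gene4660, 1.20) in the Dmxr1 library, and the Sin3-Rpd3 component Sap30p (gene4079, 1.03) in the Dgal83 library. An H3 lysine-36 methyltransferase, which marks transcribed genes (gene1125), was lower in the Dmxr1 and Dgal83 libraries, at -1.07 and -1.22. A class II deacetylase subunit (gene4745) was lower in the Dmxr1 library, at -1.20, and the NuA3 catalytic subunit (gene1904) in the Dgcn5 library, at -1.26.

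Cytosolic ribosomal proteins, a large group of growth genes, were lower in 72 of 79 rows and higher in 0 in the Dgal83 library (median log2 -1.80). In the Dmxr1 library 9 were lower and 1 higher (median -0.58), and in the Dgcn5 library 1 was lower and 0 higher (median -0.21). Of all rows, 10.7%, 10.3% and 5.04% were lower in the Dgal83, Dmxr1 and Dgcn5 libraries, and 11.0%, 7.97% and 4.06% were higher. In the Dgal83 library gene1623 and gene1624 were at log2 1.36 and 1.92. The highest row was a 40S ribosomal protein S22 row (gene394) in the Dmxr1 and Dgcn5 libraries, at 1.23 and 0.78. In the Dgal83 library it was a 60S ribosomal protein L2 row (gene805), at 0.62. Other rows of the same proteins went the other way. Another S22 row (gene2531) was called lower in the Dmxr1 library, at -1.47, and was at -0.53 in the Dgcn5 library. Other L2 rows (gene551 and gene5310) were called lower in the Dgal83 library, at -1.81 and -1.32. The lowest row of the list was a large-subunit protein (gene721) in the Dmxr1 and Dgcn5 libraries, at -1.99 and -1.17. In the Dgal83 library it was a 40S ribosomal protein S28 row (gene4046), at -3.22. The part of these differences in those of the histone rows was not tested.

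The described rows most like gene1886 and gene1887 were sought by the Euclidean distance of the 3 log2 ratios to the pair's mean, over 4 libraries. This search by pair was added after the values were seen. Nearest was a malic enzyme domain row (gene4165), at log2 -3.28, -1.48 and -1.17 in the Dmxr1, Dgal83 and Dgcn5 libraries (distance 0.35). Next came dihydroxyacetone synthase of the methanol pathway (gene3440, distance 0.53), peroxisomal membrane associated protein 20 (gene1412, 0.56), an aspartate aminotransferase-like row (gene5058, 0.59) and a FAD/NAD(P)-binding domain row (gene8, 0.68). In all, 65 rows, 1.20% of those compared, were called lower in all 3 deletion libraries.

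Nearest to the mean of gene1623 and gene1624 was a subunit of the heme-activated Hap CCAAT-binding complex, a regulator of respiratory genes (gene4703, distance 0.24). It was at log2 1.90, 1.65 and 0.55 in the Dmxr1, Dgal83 and Dgcn5 libraries. The next were an alcohol dehydrogenase domain row (gene4574, 0.25), a TB2/DP1, HVA22 family row (gene2922, 0.27), a heme-dependent peroxidase row (gene2937, 0.27) and a mitochondrial protein of iron-sulfur cluster synthesis (gene433, 0.29). The pattern of calls of gene1624, higher in the Dmxr1 and Dgal83 libraries and not called in the Dgcn5 library, was shared by 88 rows, itself and gene1623 included, 1.62% of those compared. Nearest to the mean of all 4 members, which represents neither pair, were gene1138, gene2973, gene3555, gene4144 and gene3535, at distances of 0.08 to 0.14.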

How the data were processed

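RNA of 4 strains was sequenced, 1 library each, after ribosomal RNA depletion with a kit made for bacteria, per the labels' protocols. The submitters' processing notes list Bowtie2, featureCounts (version 1.6.4), DESeq2, fastp (version 0.19.6) and bcl2fastq (version 2.19.0.316), with no role for any of them. The genome build, annotation, strand setting and treatment of reads that fit several places are not given in the sources used here. Deposited by the authors was 1 table of raw read counts for each feature, unnormalized.

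A row entered when its mean count reached 20. Libraries were scaled by TMM (edgeR 4.0.16, R 4.3.3; factors 0.862, 1.207 and 0.874 for the Mxr1, Gal83 and Gcn5 deletion libraries and 1.1 for the wild type). Ratios used 0.5 added to each count and Clopper-Pearson intervals. Differences between 2 rows used the exact conditional interval of the odds ratio. The steps were tested on simulated data. Intervals came from scipy 1.17.1, tables from pandas 2.3.3 with numpy 2.4.6, and plots from matplotlib 3.10.9, under Python 3.11.15.

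The rows named were the members, the deleted regulators, other rows described as histones, the 2 rows on each side of a pair, the 5 rows nearest in pattern, and from 4 description lists the called rows (where 6 or fewer) and the extremes. Members and lists were chosen with earlier results of these data known. Alternatives were total counts, upper-quartile factors, size factors from DESeq2 1.42.0, TMM without the 20 highest rows, no filter, a mean of at least 100 counts, protein-coding rows only, 5 added to each count, and 4-fold and 1.5-fold rules. The sums over pairs and over all core histone rows, and the search for like rows by pair, were added after the data were seen.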

Additional observations from a re-analysis of the deposited data

How the results depend on the processing

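Of 96 recomputed log2 ratios of the 4 rows, over 8 settings, 0 changed their call, 80 stayed within their counting interval and 16 moved beyond it, all with total counts or upper-quartile factors. The median log2 ratio of the 4 rows was -1.33, 0.070 and -0.95 with total counts in the Dmxr1, Dgal83 and Dgcn5 libraries, and -1.09 and -0.13 with upper-quartile factors in the Dmxr1 and Dgal83 libraries. These moves follow from the scaling factor alone, which shifts all rows of a library equally. A 4-fold rule called 2, 0 and 0 of the 4 rows in the Dmxr1, Dgal83 and Dgcn5 libraries, where the 2-fold rule called 4, 4 and 2. A 1.5-fold rule called 4, 4 and 3, with gene1623 added as higher in the Dgcn5 library. The differences within and between pairs do not use scaling and stayed within their counting intervals with 5 added to each count. No paired analysis was possible because each strain had 1 library, and no library could be left out for the same reason. Depth did not limit these rows, the lowest member count being 292, and variation between cultures was not measured.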
